A study of Mus musculus with 8 samples.

Results

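The RNA exosome subunits were followed through maturation of mouse oocytes, as 10 genes taken by symbol: *Exosc1*, *Exosc2*, *Exosc3*, *Exosc4*, *Exosc5*, *Exosc7*, *Exosc8*, *Exosc9*, *Exosc10* and *Dis3*. All 10 were among the 15962 genes listed in every library, and all 10 were among the 13968 genes that passed the filter on low values (1 TPM or more in 2 or more libraries). The data were 8 RNA-seq libraries of 15 oocytes each, 2 from each of 4 groups. GV oocytes are fully grown oocytes arrested in prophase with an intact germinal vesicle, and MII oocytes have completed the first meiotic division and await fertilisation; these were the uninjected control groups, labelled WT. The Btg4wt and Btg4tm groups were MII oocytes that had been microinjected as fully grown oocytes with capped cRNA for Myc-tagged BTG4, either in its wild-type form or as a mutant in which 3 neighbouring phosphorylated residues were replaced by alanine. Both injected groups kept their own *Btg4* gene, and the study notes that the oocyte's own BTG4 protein may be lower after injection of either form, so these groups may not be plain additions to an unchanged level. According to the study's methods the mice were Crl:CD1 (ICR), and fully grown GV oocytes were matured in culture. Oocytes were collected from gonadotropin-primed females 6 weeks old, as described for oocyte collection in general. Nothing says whether the 2 libraries of a group came from separate mice or cultures, so p-values measure only the spread between these libraries.

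The RNA exosome degrades and trims RNA from its 3′ end, in the nucleus and in the cytoplasm. Its core is a barrel: a ring of RNase PH-like subunits, which in mammals have lost their own catalytic activity, is topped by a cap of S1/KH-type RNA-binding subunits. RNA is threaded through the barrel to the nuclease DIS3 at its base, and EXOSC10 is a second nuclease. A maturing oocyte does not transcribe and removes a large part of its stored mRNA after deadenylation by CCR4-NOT, to which the maternal adaptor BTG4 links its targets. The subunit mRNAs themselves belong to that store, and the comparisons ask how each of them fared in maturation, and after injection of either form of BTG4.

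The mRNAs of 2 ring subunits, *Exosc4* and *Exosc5*, fell 10.5-fold and 16.6-fold from GV to MII, and both were higher in Btg4tm than in Btg4wt oocytes, by 6.23-fold and 9.85-fold. These are ratios of group means, and *Exosc5* was near 1 TPM in MII and Btg4wt, where its counting error is unknown. The other 8 subunits showed no change past the minimum fold in any comparison, except when libraries were scaled to the mitochondrially encoded genes, which shifted all genes. Both genes encode ring subunits, whereas *Exosc3* of the cap and *Exosc10*, a nuclease, were slightly higher in MII than in GV. The libraries were primed with oligo(dT), so that a transcript counts through its poly(A) tail. For these 4 genes the sequence is shown around the last polyadenylation signal hexamer, AATAAA or ATTAAA, in the final 100 bases. The tail is attached at the transcript end, and whether this hexamer is the signal in use was not tested. The stretches come from GENCODE M21 transcripts on GRCm38, read 5′ to 3′ on the RNA strand as DNA letters, with the signal hexamer in capitals.
Exosc4, chr15:76330641-76330670, plus strand: atgaggaacggtATTAAAggtcagaatgtt
Exosc5, chr7:25667973-25668002, plus strand: catcaggataccATTAAAaagggctccccc
Exosc3, chr4:45316617-45316646, minus strand: aaacttttatatAATAAActttgttggtag
Exosc10, chr4:148582363-148582392, plus strand: cattttaaaaccATTAAAatgtattcctac
*Exosc4* and *Exosc5* both carried ATTAAA, the commoner variant of the canonical AATAAA, at 19 and 42 bases from the transcript end. *Exosc10*, which did not fall, carried the same variant at 21 bases, and *Exosc3* carried AATAAA at 16 bases. Within the last 100 bases of the transcript, and on the RNA strand only, AATAAA or ATTAAA was found in 9 of 10 subunits, against 77.9% of the 11096 tested genes with a coding transcript. ATTAAA alone was found in 3 of 10, against 20.4% of genes. *Exosc1* held neither. TTTTAT, a form of the cytoplasmic polyadenylation element, was found in *Exosc3*, *Exosc4* and *Exosc8*, so in 3 of 10 subunits against 14.6% of genes, and TTTTAAT was found in none of the 10 against 5.53%; both can share their last letters with a signal hexamer. The pair that fell was thus not marked off by any of these letters in this window. For *Exosc5* a second, equally supported transcript of 1680 bases ends further downstream and held neither hexamer in its last 100 bases.

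*Exosc4* encodes a ring subunit, and lies on chromosome 15 of GRCm38 from 76327397 to 76330677 with 3 exons and 245 codons. Values are TPM, a transcript level per gene length and library total, scaled between libraries by the median of ratios. *Exosc4* was at 170 and 159 scaled TPM in the GV libraries, at 17.4 and 13.9 in MII, at 17.6 and 15.0 in Btg4wt, and at 97.6 and 105 in Btg4tm. The groups formed 3 levels that did not overlap, with GV highest, Btg4tm between, and MII and Btg4wt together at the bottom. From GV to MII the level fell by 3.32 on the log2 scale (SE 0.14, limma adjusted p = 8.8e-07). The fitted changes are differences of log2(scaled TPM + 1), and the ratio of mean scaled TPM was 10.5. In pools of oocytes, less RNA per oocyte and fewer oocytes with the RNA cannot be told apart. In Btg4tm it was higher than in Btg4wt by 2.57 (SE 0.14, limma adjusted p = 4.9e-06), a ratio of means of 6.23. Scaling to the mitochondrially encoded genes made these differences -5.44 and 3.61, which is -3.70 and 2.74 from the median of all genes.

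*Exosc5* encodes another ring subunit, on chromosome 7 from 25659164 to 25671368, with 6 exons and 235 codons. It was at 24.8 and 25.7 scaled TPM in GV, at 1.58 and 1.45 in MII, at 1.57 and 1.68 in Btg4wt, and at 15.2 and 16.7 in Btg4tm. Its groups were ordered like those of *Exosc4*, and again only MII and Btg4wt overlapped. The level fell by 3.38 (SE 0.17, limma adjusted p = 1.7e-06) from GV to MII. The ratio of means was 16.6, which the log2(scaled TPM + 1) scale understates because *Exosc5* ended near 1 TPM. With a pseudocount of 0.1 the change was -3.97. Near 1 TPM the counting error is unknown from TPM, so the ratios of means for *Exosc5* are uncertain. In Btg4tm it was 2.69 (SE 0.17, limma adjusted p = 8.4e-06) higher than in Btg4wt, with a ratio of means of 9.85. Under scaling to the mitochondrially encoded genes the differences were -5.04 and 3.51, or -3.30 and 2.63 from the median of all genes.

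**Figure D1:**
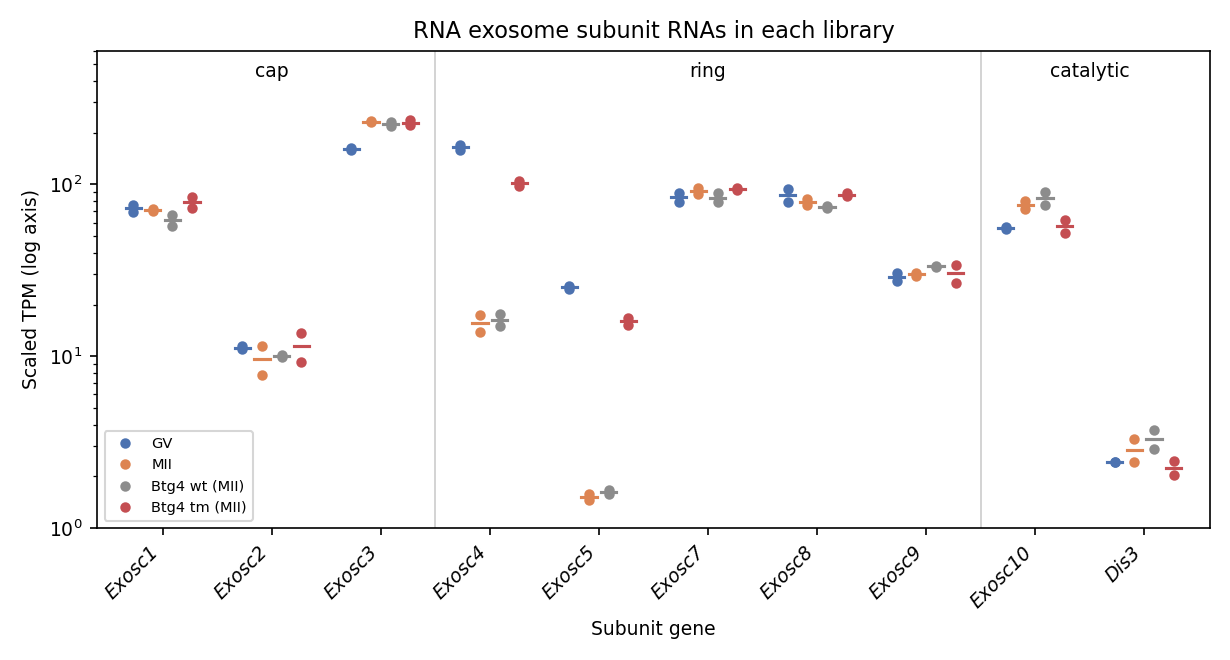
Level of each subunit mRNA in scaled TPM (log axis), with 1 point per library and a bar at the mean of the 2 libraries of a group, and with subunits grouped as cap, ring and catalytic. *Exosc4* and *Exosc5* are the subunits in which MII and Btg4wt lie far below GV, at 15.6 and 16.3 against 165 and at 1.52 and 1.62 against 25.2, with Btg4tm between at 101 and 16.0.

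In MII, 9.51% of the GV level of *Exosc4* and 6.02% of that of *Exosc5* were left, as ratios of mean scaled TPM. In Btg4wt these shares were 9.90% and 6.44%. In Btg4tm they were 61.7% and 63.4%, so the pair, which differed 6.53-fold in level in GV, stood at nearly the same fraction of the start. Set against the fall from GV to MII, the Btg4tm over Btg4wt difference amounted to 77.4% of it for *Exosc4* and 79.7% for *Exosc5* on the log2 scale, and to 57.2% and 60.6% on the linear scale. Both figures describe the values and were not tested.

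Across all genes, falls from GV to MII were common. Of the 13968 genes tested 24% were called lower (limma adjusted p below 0.05 with a log2 fold change beyond 1 in either direction), and 2 of 10 subunits were; 12.5% were called higher, and 0 of 10 subunits were. With only 10 subunits, these counts do not stand apart from the background in either direction. The size sets *Exosc4* and *Exosc5* further out: 2.75% of tested genes had a lower log2 fold change than *Exosc4*, and 2.63% had a lower one than *Exosc5*. For Btg4tm over Btg4wt 18.1% of genes were called higher, and again 2 of 10 subunits were; 7.94% were called lower, with 0 of 10 subunits. There 3.68% of tested genes had a higher value than *Exosc4*, and 3.22% a higher one than *Exosc5*. The median log2 fold change of the 10 subunits was 0.01 for MII over GV, beside -0.0017 for all tested genes, and 0.16 for Btg4tm over Btg4wt, beside 0.0077.

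**Figure D2:**
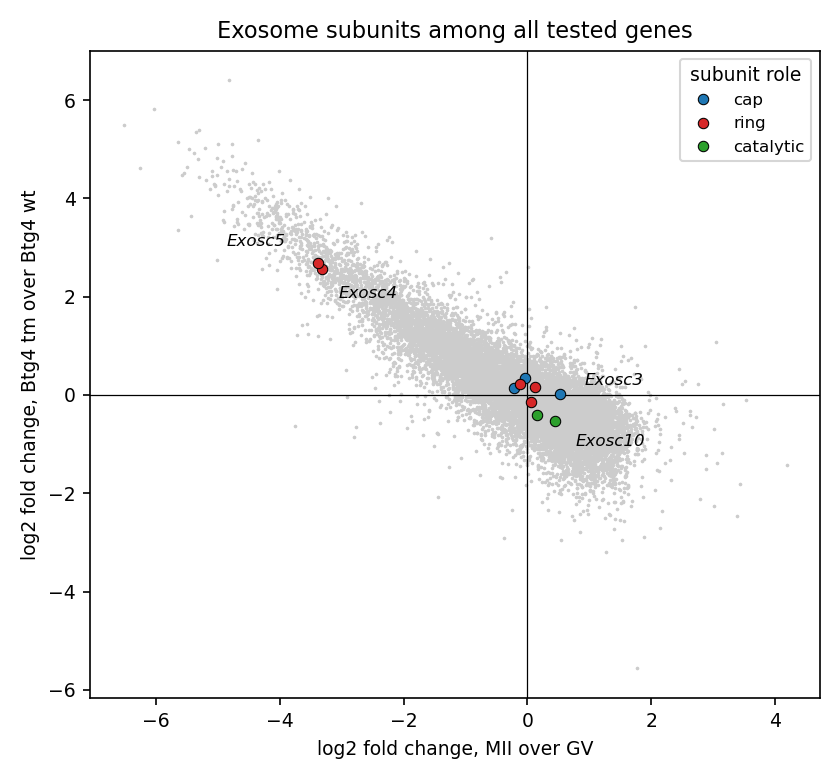
Each point is 1 of the 13968 tested genes, with the log2 fold change of MII over GV on the horizontal axis and that of Btg4tm over Btg4wt on the vertical axis; subunits are coloured by role. *Exosc4* (-3.32, 2.57) and *Exosc5* (-3.38, 2.69) lie at the upper left within the cloud of genes that were lower in MII and higher in Btg4tm, and the other 8 subunits lie between -0.22 and 0.52 on the horizontal axis.

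In the cap, which holds 3 subunits that bind the incoming RNA, no mRNA was called in any comparison. *Exosc3* was the most abundant subunit mRNA after maturation, with 163 and 160 scaled TPM in GV, 231 and 233 in MII, 231 and 218 in Btg4wt, and 221 and 237 in Btg4tm. All 6 MII-stage libraries lay above both GV libraries. The MII over GV difference was 0.52 (SE 0.09, limma adjusted p = 0.0012), under the minimum fold for a call, and it turned to -1.68 when libraries were scaled to the mitochondrially encoded genes, under which the median of all genes was -1.74. Btg4tm and Btg4wt overlapped, with a difference of 0.03 (95% interval -0.18 to 0.24).

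*Exosc1* ran from 57.6 to 84.1 scaled TPM over the 8 libraries, a range of 1.46-fold. Its MII over GV difference of -0.04 (95% interval -0.32 to 0.25) was the smallest among the subunits. The Btg4tm libraries, at 73.0 and 84.1, lay above the Btg4wt libraries at 66.2 and 57.6, with a difference of 0.34 (SE 0.12, limma adjusted p = 0.04997). That value stood at the threshold: it was past it in 1 of 8 fits that each left out 1 library (all but the fit without Btg4tm replicate 1 missed it), and with quantile normalization the difference was 0.09. *Exosc2*, the least abundant cap mRNA, was at 11.4 and 11.1 in GV, 7.81 and 11.5 in MII, 9.93 and 10.2 in Btg4wt, and 13.7 and 9.26 in Btg4tm. Its groups overlapped in all 4 comparisons, and the interval for MII over GV, -0.75 to 0.31, shows how little the 2 libraries fix it.

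For the other 3 ring mRNAs measured no difference was past the adjusted p in any comparison under median-of-ratios scaling. With quantile normalization *Exosc7* was past it in MII over GV (0.31, limma adjusted p = 0.0308). Under scaling to the mitochondrially encoded genes all 3 were past it in MII over GV and in Btg4tm over Btg4wt. *Exosc7*, *Exosc8* and *Exosc9* were then at -2.07, -2.31 and -2.09 in MII over GV and at 1.24, 1.31 and 0.91 in Btg4tm over Btg4wt. The median of all genes shifted by -1.74 and 0.88 there. From that median the 3 lay -0.33, -0.57 and -0.35 in MII over GV, and 0.37, 0.43 and 0.04 in Btg4tm over Btg4wt. *Exosc7* was at 88.9 and 79.5 scaled TPM in GV, 95.5 and 88.2 in MII, 89.1 and 78.8 in Btg4wt, and 95.7 and 92.7 in Btg4tm. *Exosc8* was at 94.0 and 78.9 in GV, 76.1 and 82.2 in MII, 75.0 and 73.4 in Btg4wt, and 85.3 and 89.4 in Btg4tm. *Exosc9*, whose protein is also known as an autoantigen in polymyositis-scleroderma overlap, was at 27.3 and 30.4 in GV, 30.7 and 29.2 in MII, 33.8 and 33.1 in Btg4wt, and 26.9 and 34.0 in Btg4tm. GV and MII overlapped for each of these genes. Their MII over GV differences were 0.12 (95% interval -0.13 to 0.38), -0.12 (-0.39 to 0.15) and 0.05 (-0.27 to 0.38), so a fall of the size seen for *Exosc4* or *Exosc5* lies outside each of these intervals. For Btg4tm over Btg4wt the differences were 0.17 (-0.09 to 0.43), 0.23 (-0.03 to 0.50) and -0.14 (-0.47 to 0.19).

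The mRNAs of the 2 nucleases differed in level, by 22.9-fold in GV and by 27.2-fold in MII. *Exosc10*, the RNase D-like nuclease of the nuclear exosome, was at 56.7 and 54.7 scaled TPM in GV, 80.4 and 72.4 in MII, 76.0 and 90.6 in Btg4wt, and 61.8 and 52.4 in Btg4tm. MII and Btg4wt lay above GV and Btg4tm without overlap. MII over GV gave 0.45 (SE 0.13, limma adjusted p = 0.0186) and Btg4tm over Btg4wt gave -0.54 (SE 0.13, limma adjusted p = 0.0105), both under the minimum fold, and scaling to the mitochondrially encoded genes turned them to -1.74 and 0.54. The first was past the threshold in 5 of 8 fits that left out 1 library, and missed it without GV replicate 1, GV replicate 2 or MII replicate 1, with adjusted p up to 0.103; it also missed it with TPM as deposited (0.0998). The second was past it in 6 of 8, and missed it without Btg4wt replicate 2 or Btg4tm replicate 2, with adjusted p up to 0.0734. MII and Btg4wt were thus the higher pair of groups for *Exosc10* and the lower pair for *Exosc4*.

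*Dis3*, the processive nuclease at the base of the barrel, was the least abundant subunit mRNA in GV and Btg4tm, at 2.44 and 2.42 scaled TPM in GV, 3.30 and 2.41 in MII, 3.74 and 2.88 in Btg4wt, and 2.45 and 2.05 in Btg4tm. Both Btg4tm libraries lay below both Btg4wt libraries, with a difference of -0.40 (95% interval -0.91 to 0.10, limma adjusted p = 0.161), and GV and MII overlapped. With quantile normalization that difference was -0.61 and past the threshold (limma adjusted p = 0.0486), and under scaling to the mitochondrially encoded genes it was 0.40. At this level a TPM table leaves the counting error unknown.

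**Figure D3:**
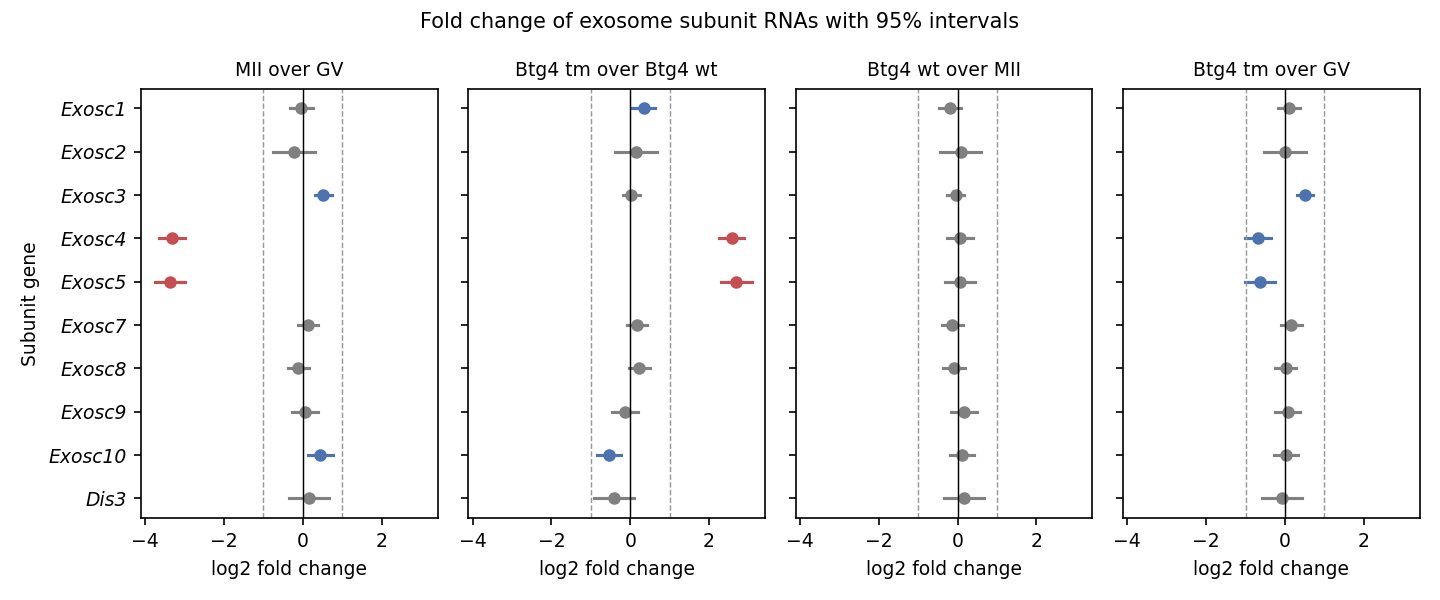
log2 fold change of each subunit in the 4 comparisons, as a point with its 95% interval from limma; red marks an adjusted p under 0.05 with a fold past the dashed lines at -1 and 1, blue an adjusted p under 0.05 only, and grey neither. Red is found for *Exosc4* and *Exosc5* in MII over GV (-3.32 and -3.38) and in Btg4tm over Btg4wt (2.57 and 2.69); the blue values of *Exosc3* and *Exosc10* in MII over GV and of *Exosc10* in Btg4tm over Btg4wt change sign when libraries are scaled to the mitochondrially encoded genes.

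At any fold, 2 of 10 subunits were past the adjusted p in the lower direction for MII over GV, against 32.8% of genes, and 2 of 10, *Exosc3* and *Exosc10*, in the higher, against 29.8%. For Btg4tm over Btg4wt 3 of 10 were past it in the higher direction, against 26.2%, and 1 of 10 in the lower, against 23.3%. Counting libraries alone, 2 of 10 subunits had both MII libraries below both GV libraries (*Exosc4* and *Exosc5*), against 41.6% of genes, and 2 of 10 had them above (*Exosc3* and *Exosc10*), against 41.1%. In the same count 5 of 10 subunits had both Btg4tm libraries above both Btg4wt libraries (*Exosc1*, *Exosc4*, *Exosc5*, *Exosc7* and *Exosc8*), against 37.6% of genes, and 2 of 10 had them below (*Exosc10* and *Dis3*), against 36.7%.

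The comparison of Btg4wt with MII asks whether injection of wild-type BTG4 moved the subunit mRNAs, with the level of the oocyte's own BTG4 in the injected group unknown here. Among 13968 genes 0% were called, and 0 of 10 subunits were; at an unadjusted p under 0.05, limma gave 1655 genes and 0 of 10 subunits. *Exosc4* differed by 0.06 (95% interval -0.27 to 0.39) and *Exosc5* by 0.06 (-0.33 to 0.44). Among all subunits the differences ran from -0.19 (*Exosc1*) to 0.16 (*Dis3*), none past the adjusted p. Both Btg4wt libraries lay below both MII libraries for 3 of 10 subunits (*Exosc1*, *Exosc3* and *Exosc8*), against 20.8% of genes, and above them for 1 of 10 (*Exosc9*), against 24.1%. The deposited control and injection tables did not list the same genes, and injection and set of tables cannot be told apart in this comparison or in Btg4tm over GV.

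The comparison of Btg4tm with GV sets MII-stage oocytes with the mutant beside the level before maturation. Of all genes 1.02% were called lower and 1.02% higher, and 0 of 10 subunits were called either way. *Exosc4* was at -0.69 (SE 0.14, limma adjusted p = 0.0213) and *Exosc5* at -0.63 (SE 0.17, limma adjusted p = 0.0486), so both libraries of Btg4tm lay below both of GV. At any fold these 2 of 10 subunits were past the adjusted p in the lower direction, against 3.73% of genes; by libraries alone 2 of 10 lay below, against 34.2%, and 2 of 10 above (*Exosc3* and *Exosc7*), against 25.3%. The value of *Exosc5* missed the threshold in each of the 8 fits that left out a library (adjusted p 0.0646 to 0.221), and that of *Exosc4* missed it without GV replicate 1, GV replicate 2 or Btg4tm replicate 1. *Exosc3* was 0.50 higher (SE 0.09, limma adjusted p = 0.0137), as 1 of 10 subunits against 7.66% of genes, missed the threshold without GV replicate 2 (0.0699), and stood at -0.13 under scaling to the mitochondrially encoded genes. This comparison shares its GV libraries with MII over GV, and its Btg4tm libraries with Btg4tm over Btg4wt.

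The balance of the subunit mRNAs within a library does not depend on the factor by which a library is scaled. Of the summed TPM of the 10 subunits, *Exosc4* made up 23.8% ± 0.046 (SD, n = 2) in GV, 2.56% ± 0.37 in MII, 2.75% ± 0.24 in Btg4wt and 14.3% ± 0.33 in Btg4tm. *Exosc5* made up 3.65% ± 0.26, 0.249% ± 0.012, 0.274% ± 0.020 and 2.26% ± 0.080 in the same order. *Exosc3* made up 23.3% ± 0.75 in GV, 38.1% ± 0.67 in MII, 37.9% ± 0.54 in Btg4wt and 32.4% ± 0.63 in Btg4tm. In GV the leading cap and ring mRNAs were level, with a ratio of *Exosc3* to *Exosc4* of 0.980 ± 0.034, whereas this ratio was 15.0 ± 2.4 in MII, 13.8 ± 1.0 in Btg4wt and 2.26 ± 0.0080 in Btg4tm. *Exosc10* went from 8.05% ± 0.16 in GV to 12.5% ± 0.76 in MII and 14.1% ± 2.1 in Btg4wt, and was at 8.08% ± 1.2 in Btg4tm. The shares of a library add up to the whole, so a fall of *Exosc4* and *Exosc5* by itself raises the shares of the others. The lower share of *Exosc3* in Btg4tm than in Btg4wt stood beside a difference in level of 0.03 (95% interval -0.18 to 0.24).

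**Figure D4:**
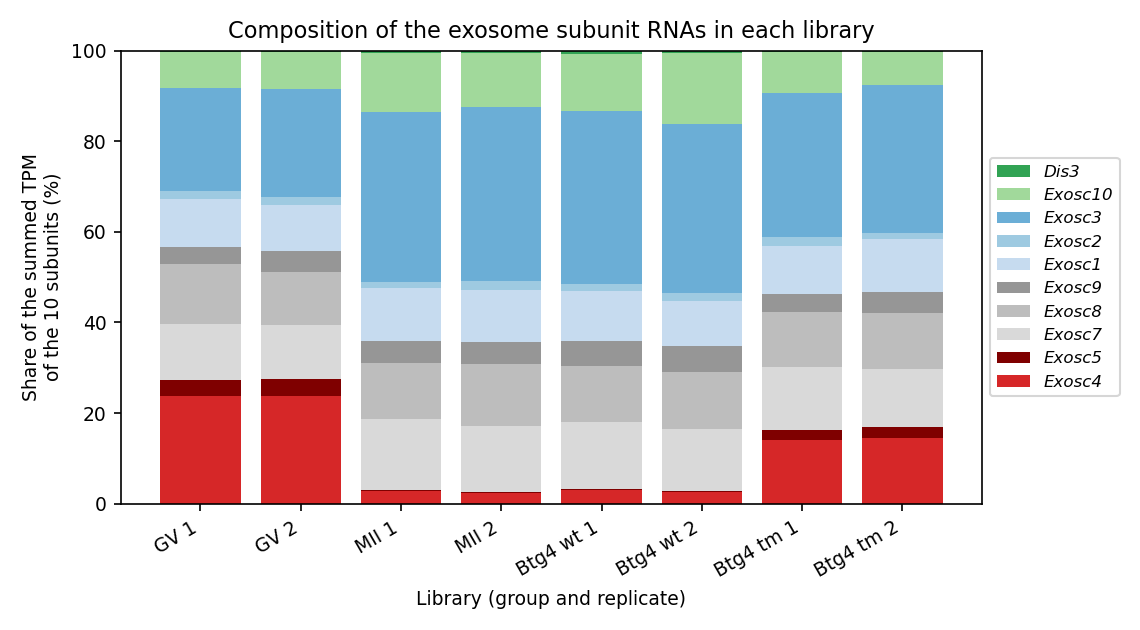
Share of each subunit in the summed TPM of the 10 subunits (%), with 1 stacked bar per library. The shares in a bar add up to the whole, so a smaller segment by itself enlarges the others. The red segments of *Exosc4* and *Exosc5* take 23.8% and 3.65% in GV, shrink to 2.56% and 0.249% in MII and to 2.75% and 0.274% in Btg4wt, and take 14.3% and 2.26% in Btg4tm, while the blue segment of *Exosc3* takes 23.3%, 38.1%, 37.9% and 32.4%.

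Summed by role, and without the ring subunit *Exosc6*, which was not analysed here, the ring mRNAs were at 389 ± 22.3 scaled TPM in GV (SD, n = 2), 218 ± 4.55 in MII, 209 ± 10.6 in Btg4wt and 329 ± 12.4 in Btg4tm. Without *Exosc4* and *Exosc5* the ring sum was 200 ± 15.2, 201 ± 1.98, 192 ± 8.88 and 212 ± 5.85, and the GV libraries overlapped those of each other group. Under median-of-ratios scaling the lower ring sum in MII and Btg4wt thus came from *Exosc4* and *Exosc5*. With libraries scaled to the mitochondrially encoded genes the full ring sum was 860 in GV and 104 in MII. There *Exosc7*, *Exosc8* and *Exosc9* were lower in MII too (-2.07, -2.31 and -2.09). The cap sum was 245 ± 7.61 in GV and 312 ± 2.31 in MII, but 541 and 148 when libraries were scaled to the mitochondrially encoded genes. The catalytic sum was 58.2 ± 1.44 in GV, 79.2 ± 6.30 in MII, 86.6 ± 9.75 in Btg4wt and 59.4 ± 6.97 in Btg4tm, and the GV and MII values became 128 and 37.6 under that scaling.

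The order of the subunits by level followed from this. In GV *Exosc4* (165 scaled TPM) and *Exosc3* (161) led and overlapped, followed by *Exosc8* and *Exosc7*, which also overlapped, then *Exosc1*, *Exosc10*, *Exosc9*, *Exosc5*, *Exosc2* and *Dis3*, whose neighbours did not overlap. In MII and Btg4wt *Exosc3* led alone, *Exosc4* was at rank 7 and *Exosc5* at rank 10, below *Dis3*; the neighbours that overlapped were *Exosc8* and *Exosc10* in MII, and *Exosc7* and *Exosc10* in Btg4wt. In Btg4tm *Exosc4* was at rank 2 and *Exosc5* at rank 8, and no neighbours overlapped.

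Patterns over the 8 libraries were compared among the 6882 genes that averaged 10 scaled TPM or more. *Exosc5* itself lay below that mean in MII and Btg4wt. Nearest to *Exosc5* was *Pop4*, which encodes a ribonuclease P subunit. The root mean square difference was 0.078 in log2(scaled TPM + 1), after each gene was centred on its own mean. The added 1 shrinks the fall of *Exosc5*, which ended near 1 TPM, more than that of more abundant genes. These distances therefore depend on the added 1, and closeness in them is not equality of the fold changes. *1110012L19Rik* (0.090) and *Rnf181*, a ubiquitin ligase gene (0.096), followed, and *Exosc4* was at rank 5 of the 6882 with 0.110. *Pop4* was at 34.4 and 35.3 scaled TPM in GV, 2.90 and 2.98 in MII, 2.77 and 2.95 in Btg4wt, and 22.8 and 26.6 in Btg4tm. The other subunits above that mean were far off, with differences from 1.45 to 1.78, and *Dis3*, below it, was not compared. For *Exosc1*, which changed least in maturation, the nearest genes were *Tmem175*, a lysosomal ion channel gene (0.078), *Ccnb1ip1*, which acts in meiotic crossing over (0.081), and *Exosc8* (0.084), with *Exosc7* at rank 16 (0.110).

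*Exosc4* and *Exosc5* had GC-rich annotated transcripts. Their GC content, 54.9% and 61.1% (55.1% for the longer *Exosc5* transcript), was the highest among the 10 subunits, which otherwise ran from 43.6% (*Dis3*) to 53.0% (*Exosc10*). The 2637 annotated genes called lower in MII over GV had a median GC content of 52.7%, against 48.6% for the other 8459. Transcript length did not set *Exosc4* and *Exosc5* apart among the subunits. *Exosc4* had 1796 bases, between *Exosc2* (1686) and *Exosc10* (2790). *Exosc5* had 1020, between *Exosc1* (1018) and *Exosc7* (1053), and 1680 in its longer transcript. The median was 1803 in genes called lower and 3125 in the others. The part of GC content and length in these values was not tested.

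Counting did not use strand, so reads over exons shared with a gene on the other strand cannot be assigned. Of the exonic bases of *Exosc4* 19.8% overlap *Oplah* on the minus strand, which was not listed in all libraries. Among stretches of 50 bases of its annotated transcript, 11.8% occur on either strand in transcripts of 345 other genes. *Oplah* shares more of them than any other gene, so part of this share can be the overlap itself. Reads of low mapping quality were dropped. Of those of *Exosc5* 5.66% overlap *Tmem91*, which was at 0.0429 to 1.18 deposited TPM in the 8 libraries. Of those of *Exosc9* 10.8% overlap *Ccna2*, at 93.7 to 196 deposited TPM. Among stretches of 50 bases of its annotated transcript, 18.2% occur on either strand in transcripts of 1 other gene, which is *Ccna2* itself. *Exosc8*, with 2.05% of its exonic bases over *Supt20*, showed no change past the adjusted p under median-of-ratios scaling, while *Supt20* was at 101 and 104 deposited TPM in GV, 19.1 and 16.4 in MII, 22.1 and 20.4 in Btg4wt, and 67.2 and 73.2 in Btg4tm.

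A second list held 18 other genes of the pathway: the ring subunit *Exosc6*, and cofactors such as the nuclear exosome targeting and TRAMP complexes, which hand nuclear RNA to the exosome, the cytoplasmic SKI complex, and related nucleases. Of these 16 were tested, all of them cofactors or related nucleases, and *Exosc6* and *Pabpn1* were not. For MII over GV 3 of 16 were called lower, against 24% of genes, and 4 of 16 higher, against 12.5%, with a median log2 fold change of 0.40. *Rbm7*, the RNA-binding subunit of the nuclear exosome targeting complex, was at 166 and 135 scaled TPM in GV, 69.0 and 59.8 in MII, 76.0 and 65.8 in Btg4wt, and 180 and 159 in Btg4tm. It fell by 1.21 from GV to MII (SE 0.14, limma adjusted p = 1.4e-04) and was 1.25 higher in Btg4tm than in Btg4wt (SE 0.14, limma adjusted p = 1.9e-04), which makes it the only listed cofactor that was called lower in MII over GV and higher in Btg4tm over Btg4wt.

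The other cofactors called lower from GV to MII were *Dis3l*, the cytoplasmic paralog of *Dis3* (-1.02), and *C1d*, a nuclear exosome cofactor (-1.04). *C1d* was at 5.87 and 4.28 scaled TPM in GV and at 1.28 and 2.75 in MII, where its counting error is unknown. With quantile normalization *C1d* missed the adjusted p (0.0837 with limma) and *Dis3l*, at -0.79, the minimum fold. Called higher were *Mphosph6* (1.45), which binds the nuclear exosome, *Zcchc8* (1.21), the scaffold of the nuclear exosome targeting complex, *Tent4a* (1.59), a non-canonical poly(A) polymerase, and *Ttc37* (1.17), the scaffold of the SKI complex. These 4 turned to -0.77, -0.99, -0.59 and -0.98 under scaling to the mitochondrially encoded genes, and stood 0.97, 0.75, 1.15 and 0.76 above the median of all genes there. With quantile normalization *Mphosph6*, at 0.97, missed the minimum fold, and *Zcchc8* (1.38), *Tent4a* (1.81) and *Ttc37* (1.42) stayed past it.

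*Mphosph6* was by far the most abundant cofactor, at 2234 and 2060 scaled TPM in GV, 5854 and 5849 in MII, 5225 and 6134 in Btg4wt, and 3989 and 4305 in Btg4tm. *Ttc37* was at 21.9 and 23.1 in GV, 53.0 and 50.8 in MII, 57.0 and 58.4 in Btg4wt, and 28.0 and 27.7 in Btg4tm. For Btg4tm over Btg4wt *Ttc37* was the 1 cofactor of 16 called lower (-1.02, SE 0.11, limma adjusted p = 1.3e-04), against 7.94% of genes, and *Rbm7* the 1 called higher, against 18.1%; the value of *Ttc37* was 0.04 under scaling to the mitochondrially encoded genes. At any fold 10 of 16 cofactors were past the adjusted p in the lower direction, against 23.3% of genes, and 1 in the higher, against 26.2%. Under scaling to the mitochondrially encoded genes none of these 10 was past it in the lower direction. Their values there ran from -0.0098 (*Dis3l2*) to 0.64 (*Mphosph6*). *Mphosph6* and *Tent4b* (0.63) were then past it in the higher direction. All 10 lay below the median of all genes under that scaling, 0.88. For Btg4wt over MII and for Btg4tm over GV 0 of 16 were called, beside 0% and 2.04% of genes in either direction.

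*Btg4* RNA itself was at 2650 and 2794 scaled TPM in GV, 5792 and 6002 in MII, 5178 and 5510 in Btg4wt, and 3725 and 4068 in Btg4tm. Its level was thus not higher in the injected libraries than in MII (Btg4wt over MII -0.14, 95% interval -0.37 to 0.09). Between the injected groups it was lower in Btg4tm than in Btg4wt (-0.46, SE 0.10, limma adjusted p = 0.0057), under the minimum fold. All 12 listed oocyte markers were found in all libraries and summed to 22738 to 32834 deposited TPM. Of 15 cumulus and granulosa cell markers 5 were listed in all libraries, and their sum ran from 22.1 to 30.3 deposited TPM, of which *Cyp19a1* made up 16.7 to 25.9. Each library listed 16448 to 17384 genes, whose TPM added up to 996199 to 998615, and the depth in reads is unknown from TPM. The part of tail length in oligo(dT)-primed values was not tested.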

How the data were processed

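Polyadenylated RNA of 8 Smart-seq2 libraries was used. Per the study's methods and the labels, the authors trimmed reads with Trim Galore 0.6.10, aligned them to GRCm38 with HISAT2 2.2.0 and GENCODE vM25, and counted exonic reads of mapping quality 10 or more with featureCounts 2.0.6, without strand. The authors deposited 1 table of TPM per library. The gene lengths behind the TPM are not given in the sources used here, and the labels' protocol gives 3 samples per group, of which 2 per group were analysed here.

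Deposited TPM of the genes listed in all 8 libraries were scaled by the median of ratios (size factors 0.948 to 1.11) and transformed to log2(TPM + 1). limma 3.58.1 in R 4.3.3 (lmFit, contrasts.fit, eBayes with trend) was fitted over all 8 libraries with 1 coefficient per group, on genes that reached 1 TPM in 2 or more libraries, with Benjamini-Hochberg adjustment over all of them. The study's count model could not be used, since TPM keep no counts. Genes were called at an adjusted p below 0.05 and a log2 fold change beyond 1 in either direction. The procedure was tested on simulated data.

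All 10 subunits, 18 cofactors, *Btg4*, and the 3 genes nearest to the subunits with the largest and smallest change in maturation were named. Members, lists, tests and alternatives were chosen with earlier results of these data known. Positions, lengths and motifs came from GENCODE M21, with 1 transcript per gene: APPRIS principal, then longest coding sequence, best support level and lowest identifier. The last criterion was set after the ends of the *Exosc5* transcripts had been seen. Alternatives were other scalings, pseudocounts, filters, thresholds, a replicate block and leaving out each library.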

Additional observations from a re-analysis of the deposited data

How the results depend on the processing

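With 2 libraries per group and TPM without depth, precision rests on the spread shared over 4 groups, and where 1 library was left out, the other of its group was assumed to vary like the others. The calls of *Exosc4* and *Exosc5* in MII over GV and in Btg4tm over Btg4wt held in every fit made; outside scaling to the mitochondrially encoded genes their MII over GV values ran from -3.48 to -3.13 and from -3.97 to -3.13, and under it they were -5.44 and -5.04, with 3.61 and 3.51 for Btg4tm over Btg4wt. Of 88 counts of subunits called under other settings 81 stayed within 1.5 times the reported count, as did all 64 from leaving out a library: 2 called lower in MII over GV, 2 called higher in Btg4tm over Btg4wt, and 0 otherwise. Scaling to the mitochondrially encoded genes moved the median of all genes by -1.74 (MII over GV), 0.88 (Btg4tm over Btg4wt), 0.39 (Btg4wt over MII) and -0.64 (Btg4tm over GV), and gave 10 subunits called lower in MII over GV, 7 called higher in Btg4tm over Btg4wt and 2 called lower in Btg4tm over GV. Without a minimum fold, 2 were called higher in MII over GV, 1 lower in Btg4tm over Btg4wt, and 2 lower and 1 higher in Btg4tm over GV. With a filter at 5 TPM, *Dis3* was not tested. Libraries with the same replicate number did not deviate together (correlations -0.016, 0.055, -0.054 and 0.040), which does not tell whether they shared mice or a culture. With a replicate block, 3339 genes were called lower and 1755 higher in MII over GV, and 1109 lower and 2527 higher in Btg4tm over Btg4wt. In each of these comparisons 2 subunits were called, as before.

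Differences that turned sign were those of subunits not called. For MII over GV, quantile normalization, which moved the median of all genes by 0.27, gave *Exosc1* 0.16, *Exosc2* 0.12 and *Exosc8* 0.083. TPM as deposited gave *Exosc7* -0.032 and *Exosc9* -0.10. Scaling to the mitochondrially encoded genes gave *Exosc3* -1.68, *Exosc7* -2.07, *Exosc9* -2.09, *Exosc10* -1.74 and *Dis3* -1.44. For Btg4tm over Btg4wt, quantile normalization, with a median of -0.18, gave *Exosc2* -0.075, *Exosc3* -0.16, *Exosc7* -0.088 and *Exosc8* -0.021, and mitochondrial scaling gave *Exosc9* 0.91, *Exosc10* 0.54 and *Dis3* 0.40. For Btg4wt over MII, mitochondrial scaling gave *Exosc1* 0.29, *Exosc3* 0.44, *Exosc7* 0.36 and *Exosc8* 0.39. For Btg4tm over GV, TPM as deposited gave *Exosc1* -0.052, *Exosc2* -0.15, *Exosc8* -0.14, *Exosc9* -0.091 and *Exosc10* -0.13, quantile normalization gave *Exosc8* -0.040, *Exosc10* -0.016 and *Dis3* 0.024, and mitochondrial scaling gave *Exosc1* -0.52, *Exosc2* -0.60, *Exosc3* -0.13, *Exosc7* -0.47, *Exosc8* -0.61, *Exosc9* -0.55 and *Exosc10* -0.60. Beyond the shift of the median, the cause was not tested.

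Leaving out 1 library turned the sign of small differences. For MII over GV the ranges were -0.10 to 0.037 (*Exosc1*), -0.46 to 0.043 (*Exosc2*), -0.24 to 0.0040 (*Exosc8*), -0.020 to 0.13 (*Exosc9*) and -0.00079 to 0.34 (*Dis3*). For Btg4tm over Btg4wt they were -0.11 to 0.40 (*Exosc2*), -0.023 to 0.078 (*Exosc3*) and -0.31 to 0.020 (*Exosc9*). For Btg4wt over MII they were -0.18 to 0.33 (*Exosc2*), -0.093 to 0.21 (*Exosc4*) and -0.0029 to 0.33 (*Dis3*). For Btg4tm over GV they were -0.0077 to 0.19 (*Exosc1*), -0.27 to 0.25 (*Exosc2*), -0.087 to 0.16 (*Exosc8*), -0.11 to 0.21 (*Exosc9*) and -0.10 to 0.13 (*Exosc10*).

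Summed levels moved with the scaling by more than their SD in 26 of 36 cases. TPM as deposited gave cap sums of 266 (GV) and 304 (MII), ring sums of 422 (GV) and 212 (MII), and a catalytic sum of 63.1 (GV). Quantile normalization gave cap sums of 233 (GV), 332 (MII), 315 (Btg4wt) and 293 (Btg4tm), ring sums of 238 (MII), 227 (Btg4wt) and 301 (Btg4tm), and catalytic sums of 54.7 (GV) and 87.3 (MII). Mitochondrial scaling gave, in the order GV, MII, Btg4wt and Btg4tm, cap sums of 541, 148, 199 and 458, ring sums of 860, 104, 140 and 473, and catalytic sums of 128, 37.6, 58.5 and 86.8.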
